A study of Homo sapiens with 6 samples.

Results

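The genes described here are the well expressed human zinc finger genes with a numbered ZNF symbol in HCT116 cells whose MUC3A gene was targeted with CRISPR guides. A gene was taken where its symbol was ZNF followed by a number and where its reads, summed over the 6 libraries, came to 500 or more. This gave 260 genes of the 15284 listed in both deposited tables. Of the 396 genes with such a symbol, 132 had fewer reads and 4 were set aside by the rule. The members were thus chosen by a measured value, their total of reads, which is no result. ZNF619 with 500 reads, ZNF181 with 504 and ZNF749 with 509 lay just inside the limit, and ZNF44 with 495, ZNF611 with 494 and ZNF738 with 492 just outside it.

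HCT116 is a human colorectal carcinoma line. KO1 cells had received lentiCRISPR v2 virus with the first MUC3A guide and KO2 cells the same vector with another MUC3A guide, and WT cells were the controls, with 2 libraries in each group. Virus was made in HEK293T cells and used at a multiplicity of infection of 10, followed by puromycin at 2 µg/mL for 72 h. WT samples carry the genotype label wild type and the treatment label negative control, which leaves unsettled whether they were infected, and no label says whether a group was 1 clone or a pool. No label tells whether a group's libraries were grown as separate cultures, and p-values measure only how far these libraries lie apart, a spread that may be technical. Each group has 1 library whose column name starts with HCT and 1 whose name starts with HCT116. The labels do not explain this prefix, which is called the library set below.

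Most ZNF-numbered genes encode proteins with tandem C2H2 zinc fingers, each finger holding a zinc ion and reading a few bases of DNA. Many also carry a KRAB domain, which recruits the co-repressor TRIM28 and with it the histone methyltransferase SETDB1, and these proteins are known for silencing transposable elements. KRAB zinc finger genes lie in tandem clusters, above all on chromosome 19, and single genes of the family are known to be shut off by DNA methylation of their promoters in cancer cell lines. The question asked was which of the 260 genes fell or rose by themselves, without the genes beside them.

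The 260 genes held 0.638% to 0.751% of all counts in a library, at library totals of 13638724 to 17829599 counts. MUC3A itself had 52.9 and 28.6 CPM (counts scaled to a common library size) in KO1 cells, 30.04 and 24.6 CPM in KO2 cells and 52.7 and 25.1 CPM in WT cells (HCT set first, then HCT116 set, an order kept throughout). Its log2 fold change was 0.08 ± 0.18 in KO1 and -0.43 ± 0.19 in KO2 (± SE here and below), with adjusted p of 0.962 and 0.237, so its RNA did not pass the test under either guide. Small deletions made by Cas9 need not lower RNA, and its level is no check of the labels. All 8 markers of colorectal epithelium were found, with summed levels of 9140 and 14300 CPM in KO1, 5710 and 8840 CPM in KO2 and 6860 and 7910 CPM in WT. Of the markers of other cells, PTPRC and CD3E of leukocytes, COL1A2, DCN and THY1 of fibroblasts and 5 of 6 genes of HEK293T lineage had 3 reads or fewer or no row. The remaining leukocyte and fibroblast markers had more reads. Over the 6 leukocyte markers the summed levels were 21 and 17.8 CPM in KO1, 6.17 and 12.6 CPM in KO2 and 9.28 and 9.02 CPM in WT. Over the 6 fibroblast markers they were 66.8 and 33.5, 72.3 and 52.9, and 70.7 and 40 CPM. DESeq2 with the set term called CD68, a leukocyte marker, higher in KO1 than in WT and lower in KO2 than in KO1.

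The sequences that follow are those of the guides and of some promoters. Whether they had a part in the changes described below was not tested. The guides are shown first, with how closely they match transcripts of the members.
KO1 guide: gaaggcaaacttggacgtcg
KO2 guide: ttctccacactccagagacc
Both guides matched GENCODE transcripts of MUC3A without a mismatch and beside an NGG motif, the motif that Cas9 needs. In the transcripts of the 260 genes, on either strand, no site beside NGG had fewer than 6 mismatches to the KO1 guide or fewer than 5 to the KO2 guide. The best site for the KO1 guide in ZNF585B, the gene that changed most in KO1 cells, had 8 mismatches, and 119 of the 260 genes had a site with 8 or fewer. Introns and intergenic DNA were not searched.

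Promoters are given for ZNF585B, for its neighbour and near copy ZNF585A, for ZNF850, which lies beyond ZNF585A, and for ZNF134, the member with the largest rise in KO2 cells. Each is the 250 bases upstream of the gene's first listed RefSeq start in GRCh38.p14, written 5′ to 3′ on the gene's own strand, and the capitals mark CG dinucleotides, the sites at which mammalian DNA is methylated.
ZNF585B (chr19:37210537-37210786, minus strand): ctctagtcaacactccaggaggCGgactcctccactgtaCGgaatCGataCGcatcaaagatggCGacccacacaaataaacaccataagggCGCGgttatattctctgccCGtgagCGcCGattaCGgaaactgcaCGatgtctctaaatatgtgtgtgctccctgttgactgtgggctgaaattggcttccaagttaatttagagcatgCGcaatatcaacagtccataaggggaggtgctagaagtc
ZNF585A (chr19:37172696-37172945, minus strand): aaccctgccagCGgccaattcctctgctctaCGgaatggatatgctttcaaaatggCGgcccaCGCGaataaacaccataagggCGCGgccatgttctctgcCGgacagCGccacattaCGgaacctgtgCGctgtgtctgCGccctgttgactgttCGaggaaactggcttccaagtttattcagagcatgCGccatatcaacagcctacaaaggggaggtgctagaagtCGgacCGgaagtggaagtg
ZNF850 (chr19:36772808-36773057, minus strand): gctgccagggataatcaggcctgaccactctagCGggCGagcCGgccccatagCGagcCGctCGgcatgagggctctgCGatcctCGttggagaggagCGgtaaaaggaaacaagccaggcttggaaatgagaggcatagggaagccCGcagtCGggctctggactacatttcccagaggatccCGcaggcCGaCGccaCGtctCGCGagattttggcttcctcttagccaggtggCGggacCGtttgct
ZNF134 (chr19:57613992-57614241, plus strand): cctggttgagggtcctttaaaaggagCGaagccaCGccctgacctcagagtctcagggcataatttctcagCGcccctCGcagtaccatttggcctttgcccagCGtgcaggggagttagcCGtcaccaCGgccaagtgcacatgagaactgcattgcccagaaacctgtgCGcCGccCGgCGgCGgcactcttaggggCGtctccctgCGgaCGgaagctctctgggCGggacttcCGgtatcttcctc
The ZNF585B window holds 13 CG dinucleotides, that of ZNF585A 16, that of ZNF850 19 and that of ZNF134 17. In an alignment the ZNF585B and ZNF585A windows were identical at 193 of 227 aligned bases (85%). The 223 members with a listed promoter had a median of 19 CG dinucleotides in such a window, with quartiles of 14 and 25, beside a median of 21 for the 9983 tested genes with one. Methylation was not measured in these samples.

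Motifs were searched on both strands of the same windows. The letters CCGGAAG, a core that ETS factors bind, were in 28.7% of the members' windows, against 15.6% of those of all tested genes and 8.82% of all promoters listed. ACTACAA, part of the sequence that ZNF143 binds, was in 7.62% of the members' windows, against 3.54% and 2.64%. For TGACGTCA, bound by CREB, the shares were 3.59%, 2.76% and 1.77%. A match is a match of letters and no evidence of binding.

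Levels within the family were low and uneven. Per length, the median over the members of the mean level in the 6 libraries was 3.98 CPM per kilobase of the longest coding transcript, against 8.36 over the 12657 tested genes with a length, and members ranged from 0.604 to 53.4 CPM per kilobase. ZNF385A, whose product is a partner of p53, stood highest at 53.4 CPM per kilobase, followed by ZNF664 at 37.3, ZNF146 at 35.6, ZNF580 at 35.2 and ZNF692 at 34.6 CPM per kilobase. Above 10 CPM per kilobase there were 46 members and below 2 there were 40. The 5 with most reads were ZNF207 (20289 reads), which encodes the spindle assembly factor BuGZ, ZNF664 (17289), ZNF146 (12270), ZNF385A (11508) and ZNF638 (9146). ZNF207 passed in no comparison between the groups, with 211 and 219 CPM in KO1, 267 and 226 CPM in KO2 and 207 and 216 CPM in WT.

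Few members passed the test under either guide. In the fit by edgeR's quasi-likelihood test with group means only, 0 of the 260 members and 0% of the 12678 genes tested passed an adjusted p of 0.05 in any of the comparisons KO1 with WT, KO2 with WT and KO2 with KO1. At an unadjusted p under 0.05 that fit held 1, 0 and 4 members in these comparisons (0.385%, 0% and 1.54%). The shares of all genes tested were 1.36%, 2.44% and 4.05%. DESeq2 with group means called 1 member, ZNF585B, in KO1 against WT and in KO2 against KO1 and 0 in KO2 against WT. In a second fit the library set was added as a term, and the values below come from it. With the set term 2 of the 260 members (0.769%) passed in KO1 against WT, both lower, where 1.03% of all genes tested passed, 0.678% higher and 0.347% lower. In KO2 against WT 4 members (1.54%) passed, 2 higher and 2 lower, where 4.61% of all genes passed, 2.15% higher and 2.47% lower. In this edgeR fit no member passed under both guides (0 of 260), in comparisons that share the WT libraries. DESeq2 with the set term called ZNF217 under both, higher in KO1 and lower in KO2. Without the filter on low counts edgeR called ZNF217 and ZNF608 under both. With 2 and 4 members called, a count of 0 under both says little about the family. The share of all genes tested that passed under both is not given here.

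**Figure D1:**
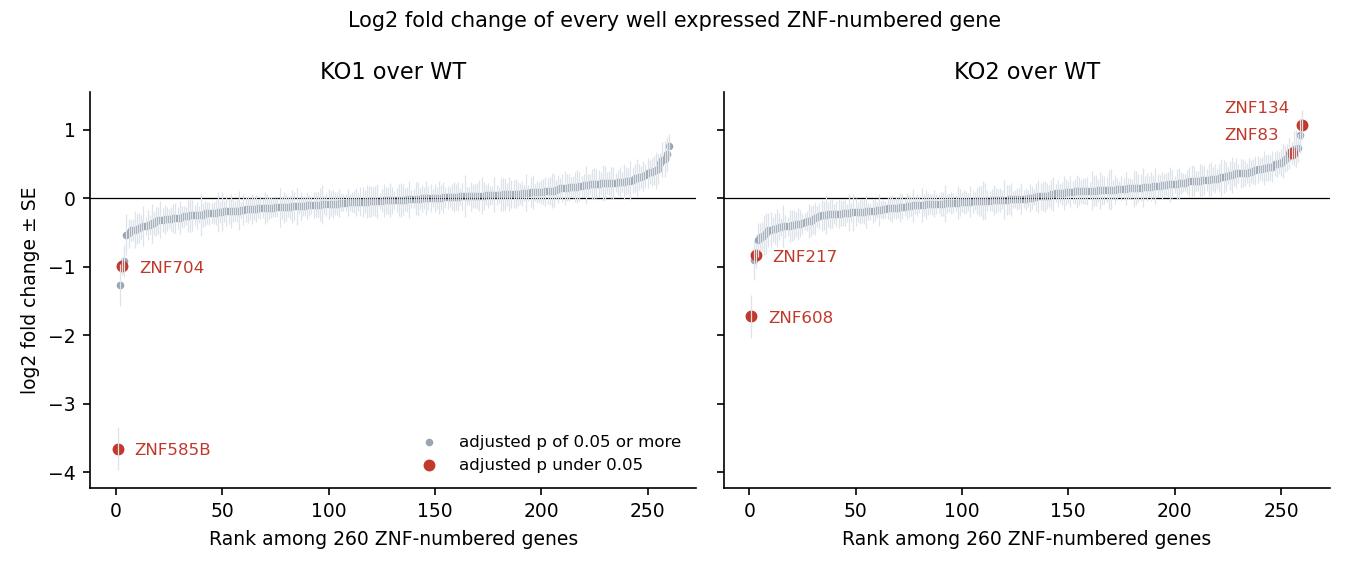
The log2 fold change of each of the 260 ZNF-numbered genes, ranked, in KO1 over WT (left) and KO2 over WT (right), from edgeR with the set term, with SE as bars. Red points passed an adjusted p of 0.05: ZNF585B and ZNF704 on the left, ZNF608, ZNF217, ZNF83 and ZNF134 on the right.

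By the share of small changes the family lay close to all tested genes with 500 or more reads. Standard deviations of the log2 fold change were 0.325 over the members and 0.273 over those genes in KO1. In KO2 they were 0.304 and 0.368. In KO1 against WT 95.8% of the members lay within 0.5 on the log2 scale of no change, compared with 89.7% of all genes tested and 95.3% of those with 500 or more reads. In KO2 against WT the shares were 91.9%, 83.1% and 89.3%. Medians over the members were -0.03 in KO1 and -0.01 in KO2 on the log2 scale, and 0.00 over all genes tested in both. A change beyond 1 on the log2 scale was fitted for 2 members (0.769%) in KO1, ZNF585B and ZNF608, and for 2 in KO2, ZNF608 and ZNF134, against 3.01% and 4.37% of all genes tested and 0.859% and 1.77% of those with 500 or more reads. The median SE of a member's log2 fold change in KO1 was 0.19. By edgeR with the set term ZNF217 at 0.75 ± 0.18 (adjusted p = 0.0807) and ZNF608 at -1.27 ± 0.30 (adjusted p = 0.0878) did not pass in KO1. Changes well over 0.5 could thus go undetected with these libraries.

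ZNF585B was the member that fell most. It had 1.07 and 0.541 CPM in KO1 cells, 13.1 and 7.67 CPM in KO2 cells and 13.9 and 6.84 CPM in WT cells. Both KO1 libraries lay far below the other 4, and the KO2 and WT libraries overlapped. Behind these levels are 16 and 7 reads in KO1, 250 and 111 in KO2 and 213 and 87 in WT. ZNF585B fell 12.6-fold in KO1, with a log2 fold change of -3.66 ± 0.31 and an adjusted p of 0.000203 (edgeR with the set term). The fall was of like size in each set, -3.54 between the HCT libraries and -3.37 between the HCT116 libraries on the log2 scale. In KO2 the log2 fold change was 0.03 ± 0.23 (adjusted p = 0.975), and KO2 over KO1, tested directly, gave 3.69 ± 0.31 (adjusted p = 3.98e-05). The authors' deposited table lists ZNF585B at a log2 fold change of -3.68 with an adjusted p of 0.00322 for KO1, the 1 member among the 6 genes under 0.05 there. In bulk RNA, fewer cells with the transcript and less transcript per cell cannot be told apart.

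No tested gene around ZNF585B passed the test with it. ZNF585A, its near copy, had 5.36 and 1.16 CPM in KO1, 5.08 and 1.52 CPM in KO2 and 3.91 and 1.26 CPM in WT, and its log2 fold change in KO1 was 0.26 ± 0.36 (adjusted p = 0.918). ZNF383, which overlaps ZNF585B on the opposite strand, was at 0.22 ± 0.26 in KO1. Over the 5 tested genes on each side, 8 of them ZNF-numbered, the median log2 fold change in KO1 was 0.14, from -0.55 at ZNF461 to 0.46 at ZFP30, and 0 of the 10 passed the test. About 26.3% of 50-base windows of the ZNF585B transcript are shared with other genes, 19.3% with ZNF585A, so part of its reads could have been assigned to the copy or left out. Without strand information reads of ZNF585B and ZNF383 cannot be told apart where they overlap.

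**Figure D2:**
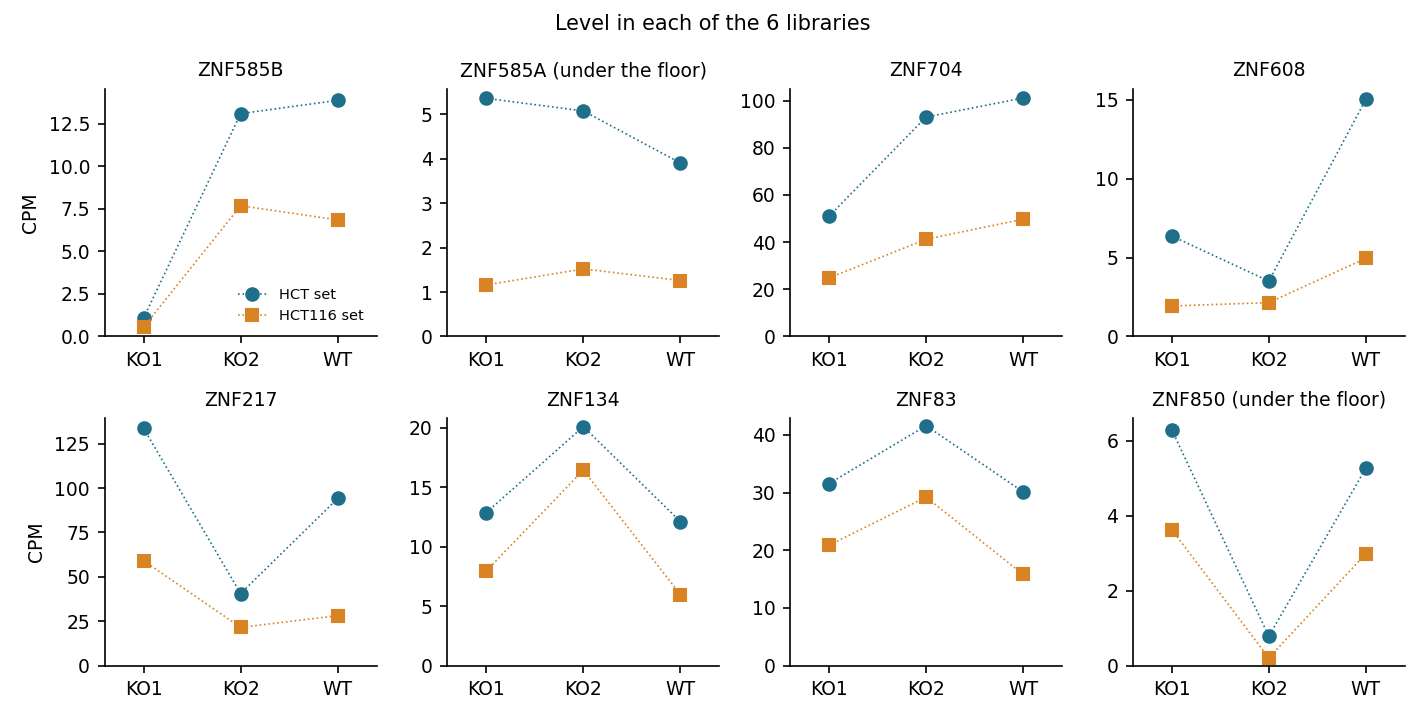
CPM in each of the 6 libraries for the 6 members that passed against WT, for ZNF585A and for ZNF850, with KO1, KO2 and WT from left to right and the HCT set (circles) and HCT116 set (squares) joined by dotted lines; each axis starts at 0. Both KO1 libraries are lowest for ZNF585B and both KO2 libraries for ZNF850, while the sets differ in most panels.

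ZNF704, on chromosome 8, was the other member that fell in KO1. Its levels were 50.9 and 24.8 CPM in KO1, 93.0 and 41.2 CPM in KO2 and 101 and 49.7 CPM in WT. KO1 was the lowest group within each set, but the groups overlapped across sets because the HCT116 libraries were lower. It fell 1.99-fold, with a log2 fold change of -0.996 ± 0.131 (adjusted p = 0.00334), and of -0.987 and -0.999 within the HCT and HCT116 sets. The 10 neighbours had a median of 0.08 and a range from -0.80 to 0.40, and 0 of them passed. Without the KO1 library of the HCT set ZNF704 no longer passed.

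For both members that passed in KO1, 0 of their 10 nearest tested genes passed the test in the same direction. This is what moving alone means below, and it held for 3 and for 10 genes on each side. Of the 10 neighbours 7 of ZNF585B and 6 of ZNF704 had positive log2 fold changes, and the others lay below 0. Since 0.347% of all genes tested were called lower in KO1, a count of 0 is likely beside any gene and says little. Among all members, 0 rose in KO1 by edgeR with the set term. At an unadjusted p under 0.05 there were 15 members (5.77%), 4 higher and 11 lower, beside 8.85% of all genes tested, and DESeq2 with the set term called 4 members, of which ZNF217 was higher and ZNF585B, ZNF704 and ZNF516 lower. The count of members that passed shifted when single libraries were left out, most of all without a KO2 library, which is in neither group compared. All libraries share 1 estimate of the spread, and the cause of the shift was not tested. ZNF585B stayed between -3.73 and -3.54 on the log2 scale over all alternatives tried.

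**Figure D3:**
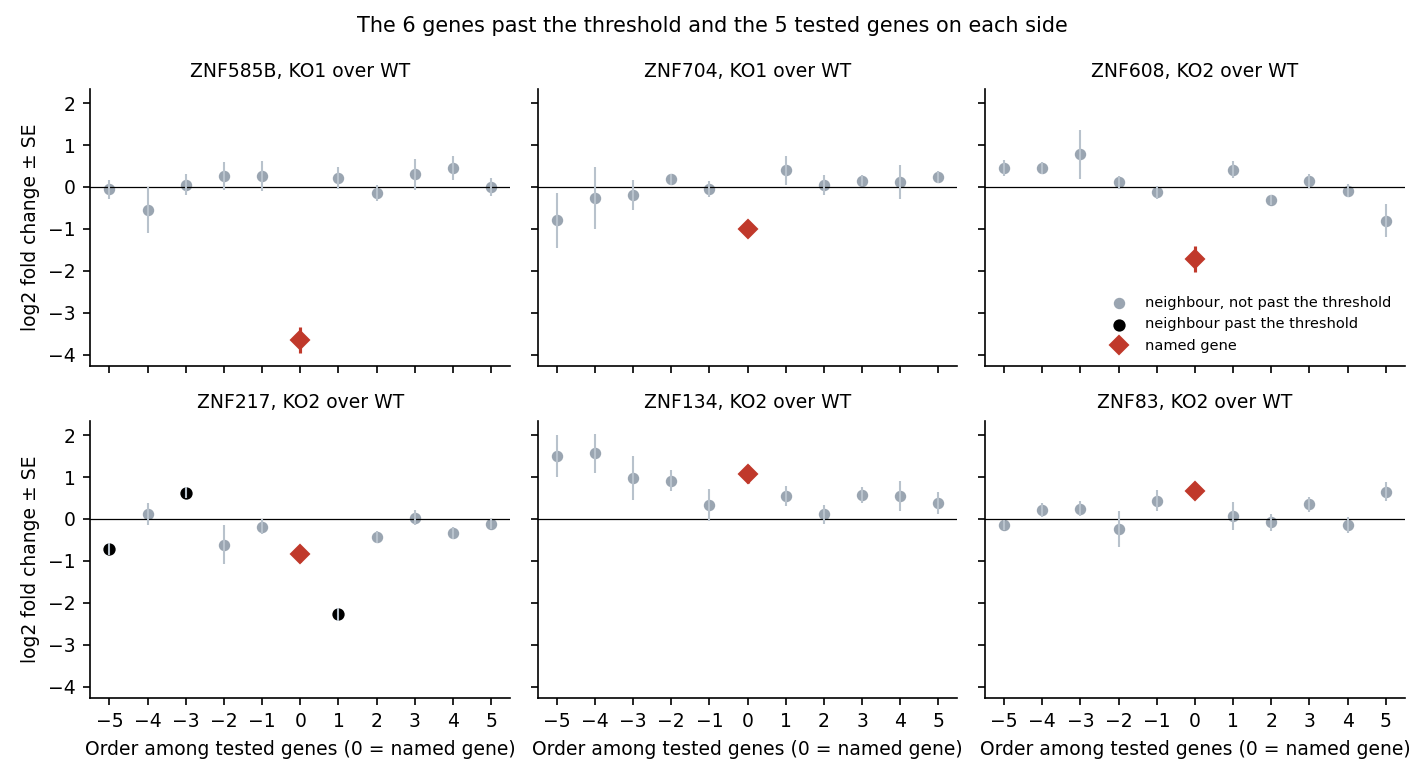
Log2 fold change with SE for each of the 6 members that passed against WT (red diamond) and for the 5 tested genes on each side in chromosome order, grey where they did not pass an adjusted p of 0.05 and black where they did. ZNF585B and ZNF608 lie below all 10 of their neighbours by more than the bars, ZNF83 at 0.66 has a neighbour at 0.65, ZNF217 has CYP24A1 and KCNG1 lower beside it, and the 10 neighbours of ZNF134 are all above 0.

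Under the other guide ZNF608 and ZNF217 fell. ZNF608, on chromosome 5, had 3.51 and 2.14 CPM in KO2, 6.37 and 1.93 CPM in KO1 and 15.0 and 4.96 CPM in WT. The KO2 libraries lay below both WT libraries, at 67 and 31 reads in KO2 and 231 and 63 in WT. ZNF608 fell 3.31-fold in KO2, with a log2 fold change of -1.73 ± 0.31 (adjusted p = 0.00966). Within the sets the change was -2.06 for HCT and -1.16 for HCT116. In KO1 it was -1.27 ± 0.30 with an adjusted p of 0.0878, and KO2 over KO1 was -0.46 ± 0.33 (adjusted p = 0.428), so a difference between the guides was not shown. The authors' deposited table lists ZNF608 in KO2 at -1.86 with an unadjusted p of 0.00611 and an adjusted p of 1, so it did not pass there. Its 10 neighbours had a median of 0.12, from -0.81 to 0.78, and 0 passed. Without the WT library of the HCT set ZNF608 was at -1.49 and did not pass (adjusted p = 0.107).

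ZNF217, which encodes a transcriptional co-repressor known as an oncogene product, moved together with a neighbour. It had 40.6 and 21.6 CPM in KO2, 134 and 59.1 CPM in KO1 and 94.2 and 28.2 CPM in WT. Both KO2 libraries lay below both KO1 libraries, whereas KO2 and WT overlapped across sets. In KO2 against WT ZNF217 fell 1.79-fold, with a log2 fold change of -0.84 ± 0.18 (adjusted p = 0.0245), by 1.21 within the HCT set and by 0.38 within the HCT116 set. KO1 was at 0.75 ± 0.18 against WT (adjusted p = 0.0807). The next tested gene on chromosome 20, CYP24A1, the hydroxylase that breaks down active vitamin D, had 58.8 and 44.0 CPM in KO2, 432 and 280 CPM in KO1 and 360 and 167 CPM in WT. CYP24A1 fell 4.85-fold in KO2 against WT, with a log2 fold change of -2.28 ± 0.17 (adjusted p = 2.72e-05). KCNG1, a potassium channel subunit on the other side, fell by 0.72 ± 0.15 on the log2 scale (adjusted p = 0.0189), and ATP9A between them rose by 0.63 ± 0.14 (adjusted p = 0.0268). Without the WT library of the HCT set the change of ZNF217 in KO2 was -0.46 and did not pass.

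ZNF134 and ZNF83, both on chromosome 19, rose in KO2. ZNF134 had 20.1 and 16.4 CPM in KO2, 12.9 and 7.96 CPM in KO1 and 12.1 and 5.98 CPM in WT. Both KO2 libraries were above all 4 others. ZNF134 rose 2.09-fold in KO2 against WT, with a log2 fold change of 1.07 ± 0.22 (adjusted p = 0.0202), and stood at 0.22 ± 0.23 in KO1 (adjusted p = 0.878). ZNF83 had 41.6 and 29.2 CPM in KO2, 31.6 and 20.9 CPM in KO1 and 30.1 and 15.8 CPM in WT, so KO2 was highest within each set and overlapped WT across sets. It rose 1.58-fold, by 0.66 ± 0.16 on the log2 scale (adjusted p = 0.0434). ZNF134 no longer passed without the WT library of the HCT116 set, and ZNF83 did not pass with DESeq2 (adjusted p = 0.0515), without either WT library or without the KO1 library of the HCT set.

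The surroundings of these 2 genes differed in value. The 5 tested genes on each side of ZNF134 are all ZNF-numbered, and 10 of 10 had a positive log2 fold change in KO2, with a median of 0.56 and a range from 0.11 at ZNF551 to 1.56 at ZNF419. None of the 10 passed the adjusted threshold by edgeR with the set term, 5 had an unadjusted p under 0.05 (19.4% of all genes tested did), and the nearest to it was ZNF416 at 0.92 ± 0.25 (adjusted p = 0.0664). ZNF134 is thus counted as rising alone by the rule of neighbours, while its neighbours lay on the same side of 0. Around ZNF83 the median was 0.14, from -0.23 to 0.65, and 6 of 10 were positive. By the rule 3 of the 4 members that passed in KO2 moved alone, ZNF608, ZNF134 and ZNF83, with 3, 5 or 10 genes on each side. With 2.15% of all genes tested called higher and 2.47% lower, neighbours that do not pass are common, so this count says little.

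In KO2 against WT the count of 4 members was 3 without the KO1 library of the HCT set, 6 without that of the HCT116 set, 1 and 2 without the WT library of the HCT and HCT116 set, and 17 and 32 without the KO2 library of the HCT and HCT116 set. All genes tested moved likewise, with 12.8% and 16.7% of them called without the KO2 library of the HCT and HCT116 set, and 2.98% and 2.44% without the WT library. Unadjusted p was under 0.05 for 36 members (13.8%), 23 of them higher and 13 lower, beside 19.4% of all genes tested.

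ZNF850, a ZNF-numbered gene with 278 reads and so below the limit of 500, was chosen after its values were seen because it lies 2 tested genes from ZNF585B. It had 0.785 and 0.207 CPM in KO2, 6.30 and 3.63 CPM in KO1 and 5.27 and 2.99 CPM in WT. Both KO2 libraries, with 15 and 3 reads, lay below the other 4. ZNF850 fell 8.19-fold in KO2, with a log2 fold change of -3.04 ± 0.43 (adjusted p = 0.00274), and was at 0.27 ± 0.33 in KO1 (adjusted p = 0.904). ZNF585A, between the 2 genes, was at 0.34 ± 0.35 in KO2 (adjusted p = 0.659).

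Between the guides 11 members differed. KO2 against KO1 called 4.23% of the members with the set term, where it called 9.62% of all genes tested. The 7 higher members stand beside 4.24% of all genes called higher and the 4 lower ones beside 5.39% called lower. Higher in KO2 than in KO1 were ZNF585B, ZNF75A, ZNF134, ZNF827, ZNF704, ZNF302 and ZNF219, and lower were ZNF217, ZNF488, ZNF185 and ZNF318. ZNF75A had 12.8 and 9.88 CPM in KO2 against 4.56 and 6.57 CPM in KO1, and 7.09 and 6.69 CPM in WT. It was 2.05-fold higher in KO2 than in KO1 (log2 difference 1.04 ± 0.26, adjusted p = 0.0307) with WT between them. Without the KO1 library of the HCT set ZNF75A was at 0.658 (adjusted p = 0.491) and without the KO2 library of that set at 0.739 (adjusted p = 0.0798), and it passed in neither. ZNF827, whose product binds the NuRD co-repressor complex, had 34.8 and 23.6 CPM in KO2 against 18.2 and 14.7 CPM in KO1, and 26.3 and 15.4 CPM in WT. ZNF704 was 1.75-fold higher in KO2 than in KO1, with an adjusted p of 0.00276.

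Among the members lower in KO2, ZNF217 differed most, 3.01-fold, with a log2 difference of -1.59 ± 0.18 (adjusted p = 0.000295). ZNF488, known in mouse for a part in oligodendrocyte differentiation, had 9.68 and 8.02 CPM in KO2 against 14.9 and 23.5 CPM in KO1, and 13.6 and 10.8 CPM in WT. Its groups did not overlap, and its log2 difference was -1.10 ± 0.25 (adjusted p = 0.0187). Without the KO1 library of the HCT116 set ZNF488 was at -0.617 and did not pass (adjusted p = 0.318). ZNF185, which encodes an actin-associated LIM domain protein, had 36.5 and 26.5 CPM in KO2 against 63.9 and 40.7 CPM in KO1, and 47.1 and 26.7 CPM in WT, a log2 difference of -0.72 ± 0.15 (adjusted p = 0.0109). With 4.24% of all genes tested called higher and 5.39% lower, a gene without a passing neighbour is common. By the rule of neighbours 8 of the 11 moved alone. The exceptions were ZNF134, beside which ZNF419 was also higher (2.44 ± 0.52, adjusted p = 0.0134), ZNF217, beside which CYP24A1 was lower (-2.77 ± 0.17, adjusted p = 3.45e-06), and ZNF488, beside which ANXA8 was lower (adjusted p = 0.00388). ANXA8 had 2 and 1 reads in KO2 against 15 and 49 reads in KO1, too few in KO2 for its fold to be given. ZNF219 and ZNF75A overlap genes on the opposite strand and 13.4% of the 50-base windows of ZNF302 are shared with other genes, so their counts are less certain.

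The epithelial markers moved between the same groups: 4 of 7 tested, among them KRT8, KRT18 and KRT19, were lower in KO2 than in KO1, and in KO1 against WT DESeq2 with the set term called 3 of them higher where edgeR called 0. Their part in the differences of the zinc finger genes was not tested. The count of members that differed between the guides was 3 and 5 without the KO1 library of the HCT and HCT116 set, 23 and 45 without the KO2 library of the HCT and HCT116 set, and 12 and 13 without the WT libraries. All genes tested were called at 3.02% and 5.62%, 14.8% and 24.7%, and 10.9% and 10.8% in the same settings. ZNF217 and ZNF585B passed in every one of these. Without the KO1 library of the HCT set ZNF488 was the other member of the 11 that passed, and without that of the HCT116 set ZNF704, ZNF75A and ZNF827 were.

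Chromosome 19 carried 96 of the 260 members (36.9%), followed by chromosome 7 with 22 and chromosome 16 with 21. In KO2 against WT the chromosome 19 members had a median log2 fold change of 0.11, and 61 of 96 were positive (63.5%). The 164 members elsewhere had a median of -0.03 and the 846 other tested genes of chromosome 19 one of -0.07, with 41.5% and 41.1% positive. The median of the chromosome 19 members was positive in 10 of 10 settings tried, between 0.08 and 0.14. In KO1 against WT it was -0.0025, and 48 of 96 were positive. ZNF585B was the 1 chromosome 19 member that passed in KO1, and ZNF134 and ZNF83 the 2 that passed in KO2. These medians describe the list and were not tested.

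**Figure D4:**
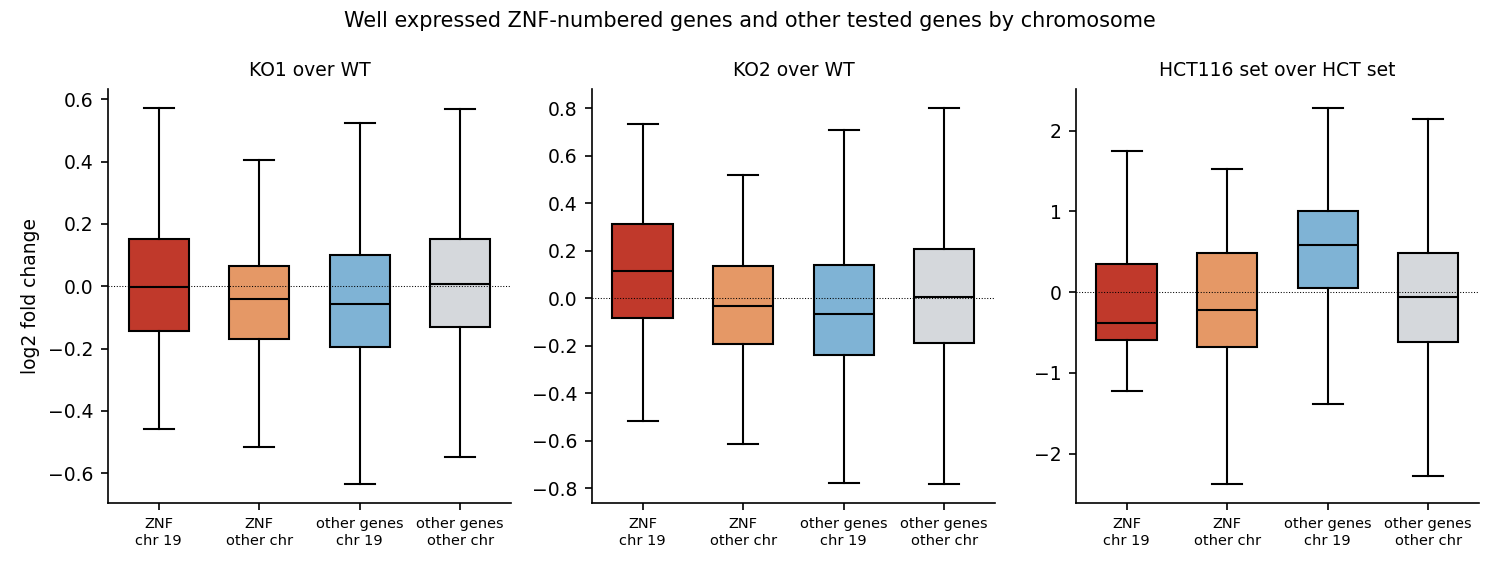
Log2 fold changes in KO1 over WT, KO2 over WT and the HCT116 over the HCT library set, as boxes (median and quartiles, whiskers to 1.5 times the quartile range, points beyond not drawn), for ZNF-numbered members on chromosome 19 (96), members elsewhere (164), other tested genes of chromosome 19 (846) and the remaining tested genes; each panel has its own scale. In KO2 the chromosome 19 members have a median of 0.11, and between the sets they have one of -0.38 while the other chromosome 19 genes have one of 0.58.

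The library sets differed far more than the groups. With the set term 181 of the 260 members (69.6%) differed between the HCT116 and the HCT libraries, where 63.9% of all genes tested did, 70 members being higher and 111 lower in the HCT116 set, beside 31.8% of all genes higher and 32.1% lower. The median over the members was -0.30 on the log2 scale, against -0.02 over all genes tested. Members on chromosome 19 had a median of -0.38, with 31 of 96 positive, whereas other genes of that chromosome had one of 0.58, with 76.7% positive. Transcripts of the 2 lists differ in base composition, with a median GC content of 44.1% for the chromosome 19 members and 60.3% for the other genes of the chromosome, beside 49.3% for all genes tested. The part of base composition in the difference between the sets was not tested. ZNF219 showed the contrast of sets at its clearest among the named members, with 63.5, 86.8 and 63.6 CPM in the HCT116 libraries of KO1, KO2 and WT against 19.3, 30.4 and 25.2 CPM in the HCT libraries.

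No tested gene of the machinery through which KRAB zinc finger proteins act passed the test. A list of 32 gene symbols was taken, and 29 of them were tested. It covers TRIM28, SETDB1, the HP1 proteins, the HUSH complex, the enzymes that write or remove DNA methylation and other chromatin factors. By edgeR and by DESeq2, both with the set term, 0 of the 29 passed for KO1 or KO2 against WT or between the guides. By edgeR 1 of them (3.45%) had an unadjusted p under 0.05 in each comparison, beside 8.85%, 19.4% and 25% of all genes tested. The shares of all genes tested that edgeR called were 1.03%, 4.61% and 9.62%. With a list of 29 genes and these shares, a count of 0 says little about the list. Their median log2 fold changes were -0.07 in KO1 and -0.06 in KO2 against WT. A comparison family held 57 zinc finger genes with ZSCAN, ZKSCAN, ZBTB or ZFP symbols and 500 or more reads. In KO1 0 of them passed by either tool, where edgeR called 1.03% of all genes tested. An unadjusted p under 0.05 was found for 2 (3.51%), beside 8.85% of all genes tested. In KO2 2 rose (3.51%), ZFP36L2 and ZSCAN31, and 0 fell. Of all genes tested 2.15% were called higher and 2.47% lower, so a count of 2 says little about the family. ZFP36L2, an RNA-binding protein with another type of zinc finger, had 141 and 145 CPM in KO2, 38.5 and 51.9 CPM in KO1 and 73.9 and 62.6 CPM in WT, and rose 2.09-fold against WT (log2 fold change 1.06 ± 0.15, adjusted p = 0.0033). ZSCAN31 had 10.99 and 10.57 CPM in KO2 against 4.95 and 5.11 CPM in WT (log2 fold change 1.10 ± 0.26, adjusted p = 0.0379).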

How the data were processed

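Poly(A) RNA of 6 libraries was sequenced after NEBNext Ultra preparation, per the labels' protocols. Per the submitters' processing notes hg18 was a build used and the tools included STAR, DESeq2 and HTSeq 0.6.0, with no roles stated. The strand setting of the counting is not stated. Deposited per gene are raw read counts of each library and the authors' log2 fold changes and p-values for each guide against WT, per the file headers. The 40 other per-sample columns were not used. WT counts are identical in both tables, which share 15284 genes, with 264 and 429 more listed for KO1 or KO2 alone.

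Counts were tested with edgeR 4.0.16 in R 4.3.3 (TMM, filterByExpr with a minimum count of 10, quasi-likelihood F test, Benjamini-Hochberg over 12678 genes at 0.05), in a fit of group means (3 residual degrees of freedom) and one with the library set as a replicate block (2). Deviations of same-set libraries from their group means correlated at 0.867 (KO1 and WT), 0.815 (KO2 and WT) and 0.783 (KO2 and KO1), so the prefix pairs the libraries; columns carry no replicate number. SE is the absolute log2 fold change over the square root of F. CPM use TMM-scaled totals. All 260 members passed the filter. Gene order, GC content, length and shared sequence came from GENCODE 29 on GRCh38, and promoters from RefSeq (GRCh38.p14). Named genes are the members that passed against WT with the set term, the 5 largest differences between the guides in each direction, the 5 with most reads, those at the limit of reads, and neighbours and near copies; others are marked as chosen later. The members and lists were chosen with earlier results of these data known. Alternatives were DESeq2 1.42.0, RLE size factors, no filter, other limits of reads, other neighbour windows and leaving out each library. Scripts were tested on simulated counts. A bound uses 3 counts over a group. A depth of 13638724 to 17829599 counts per library limits genes with few reads. Errors of the fit with the set term cover counting and the spread left over all 6 libraries once the set difference is removed. They leave out the difference between the 2 libraries of a group that the set accounts for. The median SE of a member in KO1 against WT was 0.19 with the set term and 0.42 with group means.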

Additional observations from a re-analysis of the deposited data

Results flagged for a closer look

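The 11 members below differed between the guides by a direct test of KO2 over KO1 with the library set as a term (edgeR, adjusted p under 0.05), which compares the libraries of the 2 KO groups and does not tie the difference to the targeting of MUC3A. Higher in KO2 than in KO1 were ZNF585B with a log2 difference of 3.69, ZNF75A with 1.04, ZNF134 with 0.84, ZNF827 with 0.81, ZNF704 with 0.80, ZNF302 with 0.80 and ZNF219 with 0.54. Lower in KO2 were ZNF217 with -1.59, ZNF488 with -1.10, ZNF185 with -0.72 and ZNF318 with -0.57. ZNF585B and ZNF704 had KO1 as the group apart from WT, and ZNF134 had KO2. ZNF318, known in mouse B cells for a part in IgD splicing, had 39.5 and 22.3 CPM in KO2 against 61.2 and 31.8 CPM in KO1. ZNF302 had 16.0 and 10.9 CPM in KO2 against 7.71 and 7.57 CPM in KO1. Without the library set as a term 0 of the 11 passed by edgeR, and DESeq2 called ZNF585B. In that edgeR fit 4 of the 260 members (1.54%) had an unadjusted p under 0.05, beside 4.05% of all genes tested.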

How the results depend on the processing

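The replicate block, here the library set, decided the number of members that passed. With it 2, 4 and 11 members passed in KO1 against WT, KO2 against WT and KO2 against KO1, and with no replicate block 0 did in each. DESeq2 without the block called 1, 0 and 1. With the block DESeq2 called 4, 3 and 10, beside 1.62%, 4.84% and 8.89% of all genes tested. No filter on low counts gave 5, 7 and 18, beside 2.07%, 6.21% and 10.5% of all genes tested in that setting. Taking members with 1000 or more reads left 1 in KO1 against WT. Leaving out 1 library at a time gave 1 to 13, 1 to 32 and 3 to 45 with the block, and 0 throughout without it. No member that passed with the block changed direction under any of the 10 alternatives tried for it, and by edgeR without the block each lost its call. ZNF585B kept its call in the other 9 alternatives, with log2 fold changes from -3.73 to -3.54 over all 10 in KO1 against WT, and ZNF217 kept its call in KO2 against KO1 (-1.83 to -1.32). ZNF302 lost it with DESeq2 (adjusted p = 0.0749), without either KO1 library and without the KO2 library of the HCT set. With 10 neighbours on each side 6 of the 11 members that differed between the guides moved alone, and with 3 on each side 9. The cause of these shifts was not tested, other than that leaving out a library changes the shared estimate of the spread.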

Other observations

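Of the 132 ZNF-numbered genes under the limit of 500 reads, 100 were tested. With the set term 0 passed in KO1 against WT by edgeR and by DESeq2, where edgeR called 1.03% of all genes tested. At an unadjusted p under 0.05 edgeR held 8 of them (8%), beside 8.85% of all genes tested. In KO2 against WT 5 passed (5%, against 4.61% of all genes tested), which were chosen after their values were seen. ZNF595, ZNF426 and ZNF850 fell, and ZNF804A and ZNF155 rose. ZNF595, on chromosome 4, had 0 and 0 reads in KO2, 37 and 21 in KO1 and 31 and 18 in WT, which makes it at least 19.5-fold lower in KO2 than in WT with 3 counts allowed over the KO2 group. ZNF426, on chromosome 19, had 6 and 4 reads in KO2, 86 and 40 in KO1 and 86 and 42 in WT, and fell 14.9-fold (log2 fold change -3.90 ± 0.45, adjusted p = 0.000858). Both genes were near or at 0 in both KO2 libraries, and KO1 lay close to WT.

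ZNF804A had 104 and 75 reads in KO2, 2 and 4 in KO1 and 19 and 7 in WT, and rose in KO2 against WT by 2.55 ± 0.44 on the log2 scale (adjusted p = 0.00803). ZNF155, on chromosome 19, had 95 and 55 reads in KO2, 16 and 17 in KO1 and 29 and 13 in WT, and rose 3.0-fold (log2 fold change 1.59 ± 0.39, adjusted p = 0.0436). DESeq2 with the set term called ZNF595, ZNF426, ZNF850 and ZNF804A in KO2 against WT.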
